A study of Mus musculus with 3 samples.

Results

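Heat shock proteins and their co-chaperones were followed across 3 RNA libraries of microvascular fragments from mouse brain, which are stretches of small vessel freed from the tissue. Genes were chosen by symbol: the heat shock protein genes (leaving out the proteoglycan gene Hspg2), Cryab, the J-domain genes of classes A, B and C, Bag1 to Bag6 and 4 heat shock factors. The rule found 85 genes among the 56941 of the deposited count table. The libraries form a single group of adult wild-type C57BL/6J mice, 1 library for each of 3 replicates, with no treatment, no heat-shocked sample and no intact brain or sorted cells beside them. The brains were broken up mechanically and with enzymes, so all 3 libraries share that preparation. The labels give no sex, exact age or duration of digestion. Whether each library is 1 animal is given only by the number of mice in the design text, so the spread between libraries may be partly technical.

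Chaperones bind proteins that are not, or no longer, folded. HSP70 proteins do so in cycles of ATP hydrolysis that J-domain proteins start and that nucleotide exchange factors such as the BAG and HSP110 proteins end. HSP90 proteins act on later folding states of kinases and steroid receptors, small heat shock proteins hold damaged proteins without using ATP, and the chaperonin pair Hspd1 and Hspe1 folds proteins in mitochondria. Some members are made in every cell at all times, while others are switched on by heat shock factor 1 when damaged proteins accumulate in the cytosol. Chaperones of the endoplasmic reticulum are instead raised by the unfolded protein response. Endothelial cells, smooth muscle and astrocytes are all known to carry small heat shock proteins.

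The libraries held 128428355 to 150449539 counts. By the sum of marker genes endothelium led, with its 8 markers at 13533 to 17107 CPM (counts scaled to library size with TMM factors). With 6 markers each, sums were 5053 to 8191 CPM for choroid plexus, 4636 to 6165 CPM for microglia and 4765 to 5452 CPM for smooth muscle. Pericytes summed to 3464 to 3672 CPM and astrocytes to 983 to 1871 CPM. The choroid plexus sum was mostly Ttr (6329, 7759 and 4759 CPM in replicates 1, 2 and 3), the other markers averaging 19.6 to 194 CPM. The list median of log2(CPM per kb of exon + 1), averaged over libraries, was 4.48 for choroid plexus and 4.46 for astrocytes. It was 6.00 for pericytes, 6.59 for smooth muscle, 8.07 for endothelium and 8.11 for microglia. Neuronal markers summed to 87.3 to 109 CPM and those of oligodendrocytes to 155 to 171 CPM, with all 6 and 5 of 6 at 1 CPM or more. Replicate 1 stood apart by globin and other erythroid transcripts (1088 CPM, against 134 and 62.5 CPM in replicates 2 and 3) and replicate 2 by pituitary hormone transcripts (1431 CPM, against 19.0 and 16.9 CPM in replicates 1 and 3). Replicate 3 was lowest in astrocyte markers (983 CPM, against 1668 and 1871 CPM in replicates 1 and 2) and in choroid plexus markers (5053 CPM, against 6879 and 8191 CPM). In such mixed tissue, fewer cells of a type and less RNA per cell cannot be told apart.

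Of the 85 genes, 75 reached 1 CPM in every library, and this level is called detected from here on. That is 88.2% of them, where 23.2% of all genes in the table did so. Together they took 0.980% to 1.07% of all counts. The summed level per length was 2922, 2920 and 3469 CPM per kb in replicates 1, 2 and 3, where CPM per kb is CPM divided by the exonic length in kilobases. A few constitutive genes and 1 inducible gene made up most of this sum. Per length, the HSP70 and HSP110 genes led with 857 ± 79.4 CPM per kb (SD, n = 3; 13 of 14 detected), followed by the 3 HSP90 genes with 816 ± 95.5 CPM per kb and the 8 small heat shock genes with 616 ± 127 CPM per kb (6 detected). The 45 J-domain genes reached 518 CPM per kb in all, spread over 39 detected genes, with class C at 267 ± 6.63, class B at 158 ± 6.86 and class A at 92.9 ± 1.91 CPM per kb. The BAG genes summed to 195 ± 14 CPM per kb, the mitochondrial chaperonin pair to 73.6 ± 2.86 CPM per kb and the heat shock factors to 10.1 ± 0.341 CPM per kb.

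**Figure D1:**
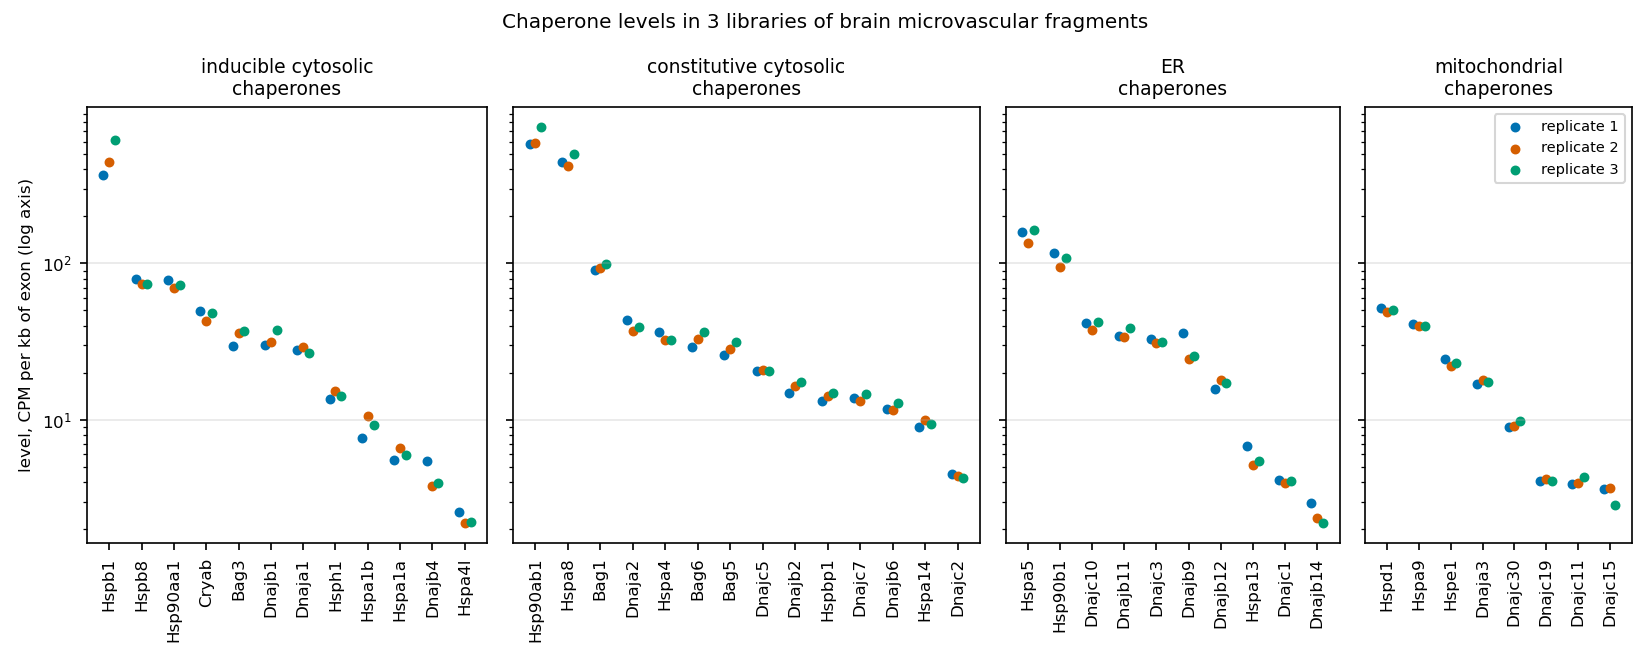
Level of each gene in CPM per kb of exon (log axis) for the inducible, constitutive, endoplasmic reticulum and mitochondrial lists, ordered by mean level, with 1 point for each of the 3 libraries. Points of a gene lie close together, and Hspb1 among the inducible genes stands beside Hsp90ab1 and Hspa8 among the constitutive ones.

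Sequence before the gene start does not depend on any measured level, but the lists were chosen with earlier results of these data known. Heat shock factors bind inverted repeats of the letters GAA, written here as GAANNTTC or TTCNNGAA, each of which reads the same on both strands. These letters were searched in the 250 bases before each RefSeq gene start (build GRCm38.p6; 67 of the 85 genes have such a window). At least 1 match stood before 6 of the 10 inducible genes with a window (60%) and 1 of the 10 constitutive ones (10%), while 14.5% of the 27025 genes with a window held one. With 3 alternating blocks in place of 2 the order turned, with 0 of 10 inducible and 1 of 10 constitutive genes. The 2-block letters also stood before 2 of 5 mitochondrial genes, 2 of 5 muscle and vessel genes and 3 of 10 partners of HSP70 and HSP90. Over all 67 members with a window the share was 22.4%. Among the inducible genes with a window, Dnajb1, Hspb8, Bag3 and Hspa4l held no 2-block match. Hspa8, Hsp90ab1, Hsp90aa1 and Cryab are among the 18 genes with no window in the tables used. The stretches below show the match with its surroundings, 5′ to 3′ on the strand of the gene, with the matched letters in capitals. Hspa1a (chr17:34972233-34972280, minus strand) and Hspb1 (chr5:135887782-135887849, plus strand) are shown as inducible genes with 1 and 2 matches.
Hspa1a: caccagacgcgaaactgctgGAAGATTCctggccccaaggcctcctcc
Hspb1: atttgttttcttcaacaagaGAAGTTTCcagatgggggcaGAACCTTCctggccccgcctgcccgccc
The stretch before Hspa1b (chr17:34959315-34959362, minus strand) has the same 48 letters as that of Hspa1a, so the pair shares its regulatory letters here as well as much of its transcript. The pair thus counts as 2 of the 6 inducible genes with a match although its letters here are the same. Matches also stood before Hsph1 (chr5:149636351-149636380, minus strand), Dnaja1 (chr4:40722333-40722362, plus strand) and Dnajb4 (chr3:152193846-152193870, minus strand).
Hsph1: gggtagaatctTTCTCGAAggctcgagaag
Dnaja1: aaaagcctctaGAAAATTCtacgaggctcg
Dnajb4: ttcgttcgctgTTCTAGAAagtaca
The single constitutive match, before Dnajb6 (chr5:29735844-29735872, plus strand), runs over 3 alternating blocks, which 0.514% of all genes with a window showed.
Dnajb6: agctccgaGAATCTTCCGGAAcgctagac
Both chaperonin genes showed 3 blocks too, as 2 overlapping matches each where Dnajb6 had 1, at one and the same place. Hspd1 and Hspe1 are divergent neighbours, and the 30 bases before Hspe1 (chr1:55088053-55088082, plus strand) are those before Hspd1 read on the other strand.
Hspe1: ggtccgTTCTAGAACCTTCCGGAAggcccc
A match is a description of letters and does not show that a factor was bound in this tissue.

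**Figure D2:**
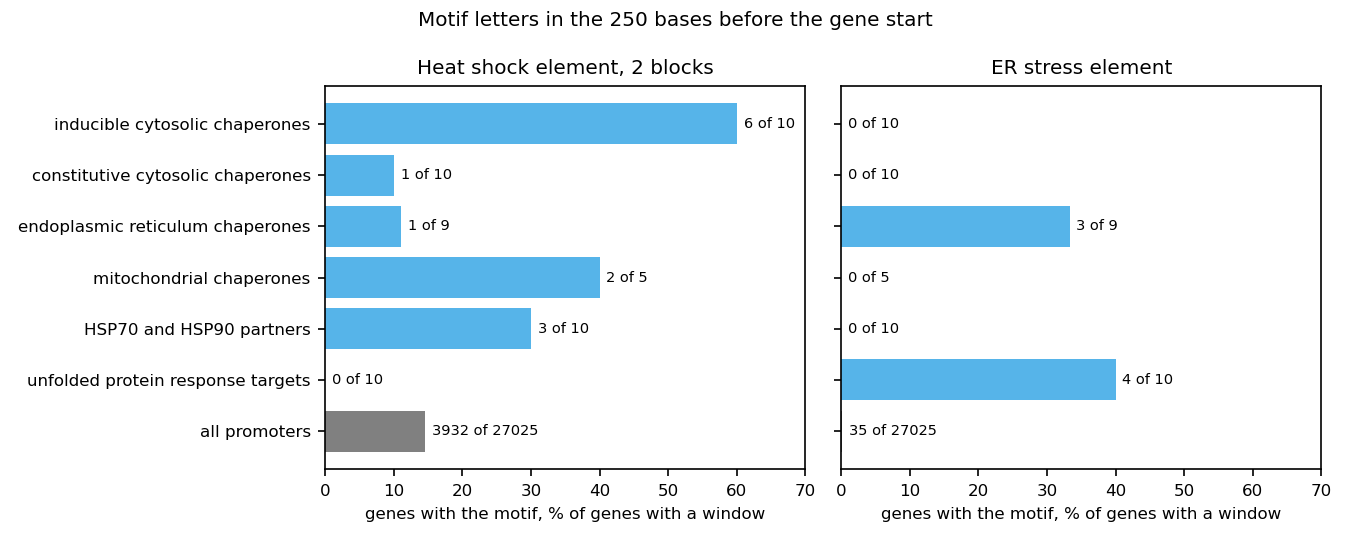
Percent of genes with a promoter window that held the heat shock element letters (2 blocks, left) or the ER stress element letters (right) in the 250 bases before the start, by list, with the number of genes beside each bar. The inducible list reaches 60% against 10% for the constitutive list and 14.5% for all promoters, and the ER stress element appears in the endoplasmic reticulum list (33.3%) and the unfolded protein response list (40%).

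The classic heat-inducible HSP70 genes were present in every library, at a level that was low beside that of the constitutive Hspa8. Hspa1a, which is switched on by heat shock factor 1, had 16.4, 19.7 and 17.8 CPM in replicates 1, 2 and 3. Its neighbour Hspa1b, coding for nearly the same protein, had 21.3, 29.6 and 25.9 CPM. Both were highest in replicate 2, and neither spanned more than 1.39-fold between libraries. Per length Hspa1a had 6.05 ± 0.549 CPM per kb and Hspa1b 9.13 ± 1.49 CPM per kb. Of the 150-letter stretches of their longest transcripts, 46% of Hspa1a and 40.5% of Hspa1b occur in another gene, the partner of the pair among them, so the division of reads between the pair is uncertain. Whether reads with several places were counted is not given, so the summed level of the pair may be understated too. Their summed level per length was 2.95%, 4.11% and 3.05% of that of Hspa8, the constitutive HSP70 of the cytosol, in replicates 1, 2 and 3. Hspa8 had 1915, 1797 and 2147 CPM, and 22.4% of its own 150-letter stretches occur in other genes.

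Several other genes of the heat shock response had more CPM than either gene of the inducible HSP70 pair as counted. Hspb1 (HSP25 in mouse), a small heat shock protein that guards the actin skeleton, had 378, 458 and 636 CPM. It was lowest in replicate 1 and highest in replicate 3, a range of 1.68-fold, and at 476 ± 128 CPM per kb it ranked second of all 85 genes per length. Of its 150-letter stretches 36.6% occur in other genes. Hsp25-ps1, a pseudogene that shares 150-letter stretches with Hspb1, had 344, 319 and 445 counts, against 49164, 64017 and 92370 for Hspb1. Its relative Cryab, the lens protein also known from astrocytes and oligodendrocytes, had 73.4, 63.3 and 71.5 CPM, with no such order. Hspb8, which works with Bag3 in removing damaged proteins by autophagy, had 155, 144 and 143 CPM, and Bag3 had 75.6, 91.5 and 94.0 CPM. Bag3 was thus lowest in replicate 1, while the 3 libraries of Hspb8 lay within 1.08-fold.

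Hsp90aa1, the inducible HSP90, stood at 306, 272 and 284 CPM, against 1731, 1762 and 2239 CPM for Hsp90ab1, its constitutive counterpart. Per length Hsp90aa1 reached 13.5%, 11.8% and 9.69% of Hsp90ab1 in replicates 1, 2 and 3. Of the 150-letter stretches of Hsp90aa1, 36.2% occur in pseudogenes. Dnajb1, the J protein that partners inducible HSP70, had 96.2, 101 and 120 CPM, and Dnaja1 had 241, 253 and 231 CPM. Hsph1, an HSP110 that releases nucleotide from HSP70, had 98.9, 110 and 103 CPM, and its relative Hspa4l had 30.4, 25.7 and 26.1 CPM. Dnajb4, another heat-inducible J protein, was highest in replicate 1, with 48.0, 33.0 and 34.6 CPM.

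The constitutive list was led by the pair Hsp90ab1 (637 ± 94.8 CPM per kb) and Hspa8 (454 ± 41.4 CPM per kb), both highest in replicate 3. Bag1, which joins HSP70 to the proteasome, followed at 94.3 ± 4.48 CPM per kb. Hspa4, the constitutive HSP110, had 200, 178 and 178 CPM, and Bag6, which handles tail-anchored and misplaced membrane proteins, had 181, 205 and 225 CPM. Dnajc5, the cysteine string protein of secretory vesicles, was the least variable of all detected members with 142.4, 144.8 and 142.6 CPM. Dnaja2 had 129, 110 and 117 CPM, and the polyglutamine suppressor Dnajb6 had 71.0, 70.2 and 77.6 CPM. The other constitutive genes ranged per length from Dnajc2 at 4.37 ± 0.106 CPM per kb, the ribosome-bound J protein, to Bag5 at 28.7 ± 2.80 CPM per kb, with Dnajb2 (16.3), Hspbp1 (14.1), Dnajc7 (13.9) and Hspa14 (9.45 CPM per kb) between them. Of the 12 inducible genes, 5, 4 and 3 were highest in replicates 1, 2 and 3, and of the 14 constitutive genes 3, 2 and 9 were. Over all 13211 detected genes the numbers were 4559, 3785 and 4867, and the difference between the lists was not tested.

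As lists, inducible and constitutive genes covered overlapping ranges of level. The median was 4.96 ± 0.06 for the 12 inducible and 4.66 ± 0.07 for the 14 constitutive genes on the log2(CPM per kb + 1) scale (SD, n = 3), and 2.77 for all detected genes. The difference, inducible minus constitutive, was 0.30, 0.31 and 0.29 in replicates 1, 2 and 3. Its sign depends on how the lists are summed up: with list means in place of medians it was -0.39, and without genes that share over 10% of their 150-letter stretches with other genes, an alternative chosen after the data were seen, it was also -0.39. No test was made: the exact sign-flip test of 3 values can reach no p under 0.25. The spread within a list, from Hspa4l at 2.33 to Hspb1 at 476 CPM per kb and from Dnajc2 at 4.37 to Hsp90ab1 at 637 CPM per kb, exceeded either value.

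Between libraries, the inducible genes moved little as a group. Their mean deviation from each gene's own mean was -0.03, -0.0051 and 0.04 on the log2 scale in replicates 1, 2 and 3. That of the constitutive genes was -0.04, -0.03 and 0.07, so the difference of the lists was 0.01, 0.02 and -0.03. The immediate early genes, which are switched on within minutes of many stimuli, were set beside them, since earlier results of these data showed a shift there. They deviated by -0.79, 0.83 and -0.04, all 11 detected ones being highest in replicate 2. The highest by level were Dusp1 (244, 706 and 580 CPM), Jun (185, 385 and 290 CPM), Btg2 (144, 441 and 273 CPM) and Ier2 (96.2, 203 and 152 CPM). Fos and Egr1 are added for their wide ranges, seen beforehand. Fos had 13.7, 86.6 and 32.6 CPM and Egr1 32.2, 184 and 57.8 CPM. On the log2(CPM + 1) scale 9 of these 11 genes and 0 of the 75 detected chaperone genes ranged 2-fold or more over the libraries, where 1.29% of all 13211 detected genes did.

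**Figure D3:**
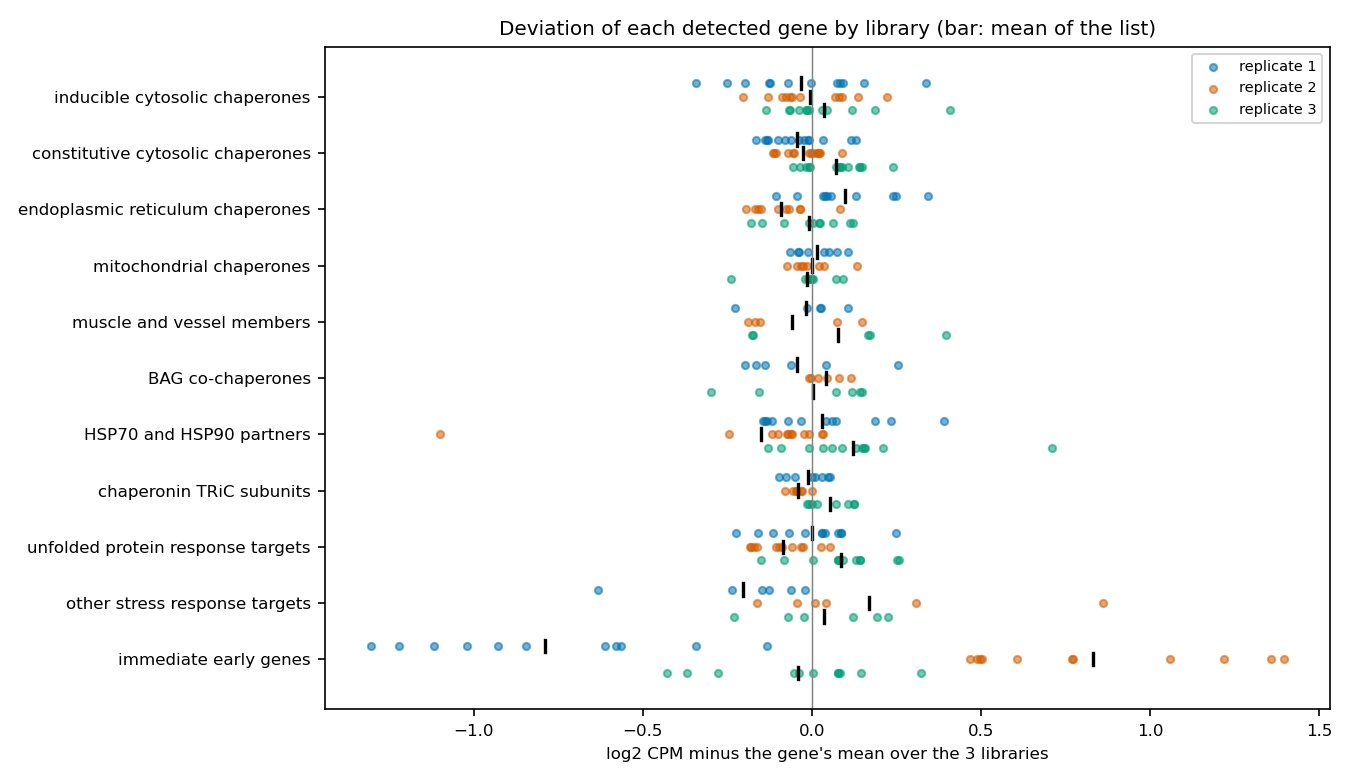
Log2 CPM of each detected gene minus its mean over the 3 libraries (points) with the mean of each list (black bars), by library, for chaperone lists, other lists of the pathway and immediate early genes. The inducible and constitutive genes stay within 0.07 of 0 as list means, whereas immediate early genes sit at -0.79 in replicate 1 and 0.83 in replicate 2.

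No chaperone gene was called as variable between libraries, and few genes of any kind were. In edgeR's quasi-likelihood dispersion test over 18087 genes, 0 of the 79 tested members passed an adjusted p of 0.05, where 0.0829% of all genes did. Of the 12 immediate early genes 0 passed as well (adjusted p = 0.0529 in edgeR for both Fos and Egr1), though 10 lay under an unadjusted p of 0.05. The absence of calls therefore does not set the members apart. At an unadjusted p under 0.05 the test picked 1 of 79 members, Dnajb9 (adjusted p = 0.957 in edgeR), where 5.17% of all genes lay under that value. That count was 0 without replicate 1, 4 without replicate 2 and 2 without replicate 3. DESeq2 marked 0 of 79 members as dispersion outliers, where it marked 0.619% of all genes. The 6 members left untested for low counts were Dnajb7, Dnajb8, Dnajc5b, Dnajc5g, Dnajc22 and Hsf5.

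The members' spread was close to that of other genes. Their median SD over the libraries was 0.12 on the log2(CPM + 1) scale, against 0.13 for all detected genes, and 40 of 75 lay under that value. It was 0.13 for the inducible and 0.09 for the constitutive list, and lowest for the mitochondrial list at 0.05. Among genes between 100 and 1000 CPM, 21 members had a median SD of 0.10, against 0.13 for all 2083 genes of that level, and between 10 and 100 CPM 40 members had 0.09, against 0.12 for 7322 genes. Below 10 CPM the order turned, with 0.16 for 12 members and 0.15 for all 3708 genes. At 1000 CPM or more it turned too, though barely, with 0.168 for 2 members and 0.165 for all 98 genes. Among detected members the widest ranges on the log2(CPM + 1) scale belonged, in this order, to Hspb1, Dnajc6, Hspa12b, Dnajb9, Dnajb4 and Bag4, with 1.46-fold to 1.86-fold between their lowest and highest CPM. Dnajc6, or auxilin, which strips clathrin from vesicles in neurons, had 4.51, 3.83 and 2.42 CPM. The mean deviation of neuronal markers ran in the same order (0.35, -0.13 and -0.22 on the log2 scale), but their summed level (109, 87.3 and 103 CPM) did not. Among these markers Snap25 had the widest range, 3.75-fold, with 15.3, 6.57 and 4.08 CPM. Snap25, Rbfox3 and Tubb3 fell from replicate 1 to replicate 3, whereas Syt1, Stmn2 and Nefl did not keep that order. The mean deviation of choroid plexus markers also followed that order (0.31, 0.15 and -0.46). The part of either in the range of Dnajc6 was not tested.

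**Figure D4:**
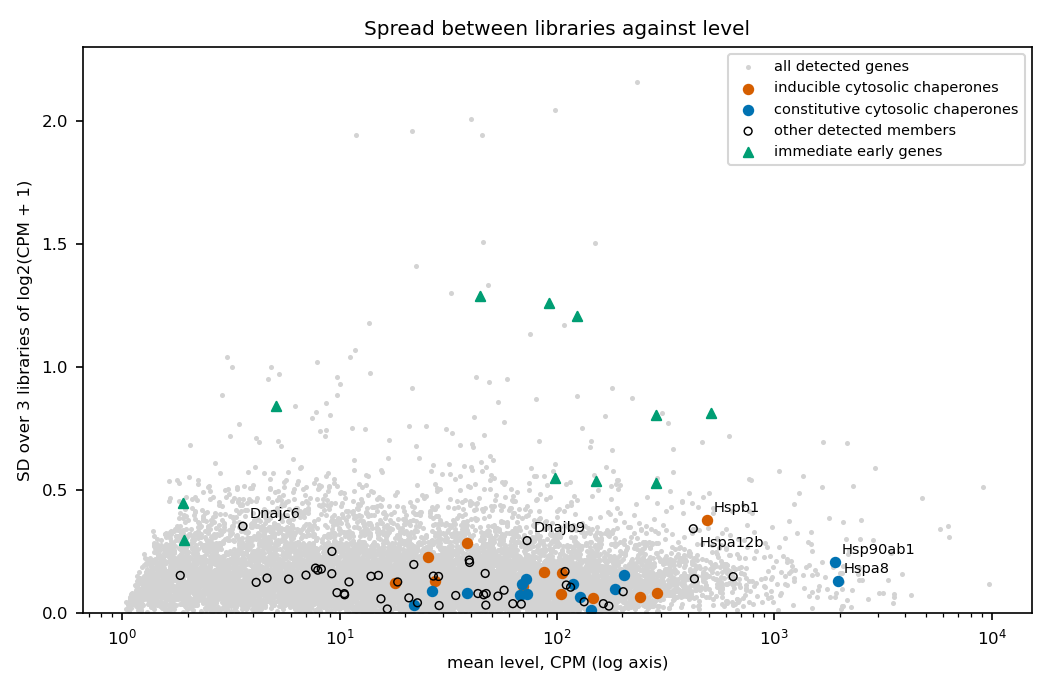
SD over the 3 libraries of log2(CPM + 1) against mean CPM (log axis) for all 13211 detected genes (grey), inducible and constitutive chaperones, other detected members and immediate early genes. Members lie in the dense lower band, with Hspb1 the highest of them at 0.38, while Fos, the highest of the immediate early genes, lies at 1.29.

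Among members tied to vessels and muscle, Hspa12b was by far the most abundant. This HSP70 relative, known as an endothelial gene, had 355, 369 and 547 CPM and was the fifth of all members per length at 115 ± 29.0 CPM per kb. Its paralog Hspa12a had 30.5, 29.9 and 25.1 CPM, so the ratio of Hspa12b to Hspa12a per length was 29.0, 30.8 and 54.3. Hspa12b and Hspb1 were both highest in replicate 3 and lowest in replicate 1, as was the sum of 8 endothelial markers (13533, 15869 and 17107 CPM). Of these markers 6 were highest in replicate 3 and 2, Cldn5 and Tek, in replicate 2. Tek (927, 977 and 898 CPM) was lowest in replicate 3. Replicate 3 was also the library lowest in astrocyte and choroid plexus markers. The part of these differences in the ranges of both genes was not tested. The small heat shock genes of muscle were low: Hspb6 had 14.1, 15.4 and 12.3 CPM, Hspb7 9.30, 8.03 and 10.3 CPM, Hspb2 5.73, 5.21 and 6.52 CPM and Hspb3 0.791, 0.744 and 0.992 CPM. Of the exons of Hspb2, 30.2% lie under Cryab on the other strand. Reads of the pair can be told apart only where strand was used in counting, which is not given in the sources used here.

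Chaperones of the endoplasmic reticulum were led by Hspa5 (BiP), the HSP70 of that compartment, with 670, 573 and 696 CPM, and Hsp90b1 (GRP94), its HSP90, with 467, 385 and 434 CPM. Both were lowest in replicate 2. Dnajc10, a J protein with disulfide reductase activity, had 207, 188 and 210 CPM, Dnajc3, which also restrains the kinase PERK, had 168, 159 and 162 CPM, and Dnajb11 had 112, 109 and 125 CPM. All 10 genes of the list were detected, with Dnajb12 at 16.9 and Dnajc1 at 4.04 CPM per kb, down to Dnajb14 at 2.51 ± 0.396 CPM per kb. Dnajb9, a J protein that dampens the stress sensor IRE1, was highest in replicate 1 with 91.1, 62.6 and 64.8 CPM. Hspa13 had 46.4, 35.2 and 37.1 CPM and Dnajb14 46.45, 37.3 and 34.6 CPM, with replicate 1 again on top. As a list, 6 of the 10 were highest in replicate 1, as were 4559 of all 13211 detected genes, and the mean deviation was 0.10, -0.09 and -0.01 on the log2 scale. Microglial markers deviated by 0.20, -0.25 and 0.05, with 4 of 6 highest in replicate 1, and their part in the order of the list was not tested.

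The ER stress element, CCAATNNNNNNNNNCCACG on either strand, stood in the 250 bases before Hspa5 (chr2:34772020-34772048, plus strand), Dnajc3 (chr14:118937807-118937865, plus strand) and Hsp90b1, that is, before 3 of the 9 genes of this list with a window, where 0.13% of all genes with a window held it. It matched in none of the windows of the inducible and constitutive lists. With 10 genes with a window in each list and a share of 0.13% over all genes, that absence says little. This motif was chosen after earlier results of these data were known.
Hspa5: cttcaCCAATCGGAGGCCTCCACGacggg
Dnajc3: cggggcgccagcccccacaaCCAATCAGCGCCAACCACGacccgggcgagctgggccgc
Hsp90b1 (chr10:86705513-86705676, minus strand) held the element in both orientations, which is why its longer stretch is shown.
Hsp90b1: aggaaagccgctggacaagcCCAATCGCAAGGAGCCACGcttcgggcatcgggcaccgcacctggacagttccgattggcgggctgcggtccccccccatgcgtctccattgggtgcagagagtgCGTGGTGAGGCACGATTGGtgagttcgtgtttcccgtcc

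Mitochondrial chaperones had the lowest median spread of the chaperone lists. Hspa9 (mortalin), the HSP70 that pulls proteins into the matrix, had 177, 172 and 171 CPM. Hspd1 (HSP60) had 138, 129 and 133 CPM and its lid Hspe1 (HSP10) 36.0, 32.4 and 34.2 CPM. The ratio of Hspd1 to Hspe1 per length was 2.14, 2.22 and 2.16, with an SD of 0.0430. That SD covers the libraries only, and the ratio itself depends on the exonic lengths used. Of the 150-letter stretches of Hspd1, 18.6% occur in the pseudogene Hspd1-ps3, which had only 65, 49 and 56 counts. Dnaja3, the J protein of the matrix, had 66.6, 70.2 and 68.6 CPM, and Dnajc19, of the import motor, 16.4, 16.8 and 16.4 CPM. Dnajc15, its relative, had the widest range of the list, with 23.5, 23.9 and 18.5 CPM. Dnajc30 (9.32 CPM per kb) and Dnajc11 (4.05 CPM per kb) make up the rest of the 8 genes.

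Heat shock factors themselves were modest in level. Hsf1, the main switch of the response, had 45.2, 46.1 and 50.3 CPM, Hsf2 11.02, 10.7 and 9.87 CPM and Hsf4, known from the lens, 3.85, 4.66 and 3.88 CPM. Hsf5, a testis gene, had 0, 1 and 1 counts. Among the BAG genes not yet named, Bag2 had 11.3, 11.9 and 9.87 CPM and Bag4 10.9, 9.39 and 7.39 CPM. Bag4 was lowest in replicate 3, with a range of 1.47-fold, the reverse of Bag5 (65.3, 71.6 and 79.3 CPM) and Bag6.

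Members linked to testis were nearly silent. Of 9 such genes only Dnajb13, an axonemal J protein, was detected, with 2.13, 1.53 and 1.88 CPM, and 11.2% of its exons lie under Ucp2 on the other strand. Hspa1l had 0.684, 0.787 and 0.689 CPM, but 70.2% of its 150-letter stretches occur in other genes. Dnajb3 and Hspb9 also stayed under 1 CPM. Dnajc5b and Dnajc5g had 0 counts in all 3 libraries, where 3 counts would be 0.0234, 0.0220 and 0.0199 CPM, a limit that covers counting error only. Dnajb7, Dnajb8 and Dnajc22 had at most 6 counts in any library. The 21 members in no role list included 20 detected genes. Per length they were led by Dnajc8, a nuclear J protein, at 43.2 ± 3.55, Dnajc14 at 16.6 ± 2.01 and Dnajc4 at 12.2 ± 1.42 CPM per kb. The other 17, Hspa2, Dnajc9, Dnajc12, Dnajc13, Dnajc16, Dnajc17, Dnajc18, Dnajc21, Dnajc24, Dnajc25, Dnajc27, Dnajc28, Dnaja4, Dnajb5, Hspb11, Hspbap1 and Dnajc6, ranged from 0.607 CPM per kb in Dnajc6 to 10.8 CPM per kb in Hspa2. Of the exons of Dnaja4, 44.1% lie under Wdr61 on the other strand.

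The lists of genes that work with these chaperones were detected in full. All 12 partners of HSP70 and HSP90 were above 1 CPM, led by the immunophilin Fkbp4 (254 ± 33.7 CPM) and the kinase co-chaperone Cdc37 (187 ± 19.2 CPM), with St13 at 148 ± 22.0 and Stip1, which joins HSP70 to HSP90, at 125 ± 12 CPM. None of the 12 passed the dispersion test in edgeR, and 1 lay under an unadjusted p of 0.05. Fkbp5, the glucocorticoid-responsive partner of HSP90, named here after its values were seen, had 55.9, 19.9 and 69.7 CPM (adjusted p = 0.232 in edgeR). It was lowest in replicate 2, where the immediate early genes were highest. The 8 subunits of the cytosolic chaperonin TRiC lay between 125 CPM for Tcp1 and 255 CPM for Cct7 with a median SD of 0.06 on the log2(CPM + 1) scale. All 12 targets of the unfolded protein response were detected, led by the lectin chaperones Calr (909 ± 86.9 CPM) and Canx (443 ± 69.0 CPM), then Xbp1 (244 ± 12 CPM) and Pdia6 (222 ± 24.7 CPM), down to Ddit3, the factor CHOP, at 14.5 ± 2.47 CPM. Among other stress genes, Ubb had 821 ± 70.7 CPM and the collagen chaperone gene Serpinh1 533 ± 76.1 CPM (SD, n = 3), and Hmox1 had 18.4, 19.2 and 18.4 CPM. Atf3, highest in replicate 2, had 18.1, 50.9 and 23.8 CPM (adjusted p = 0.317 in edgeR).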

How the data were processed

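Whole-number counts per gene were deposited for 3 poly(A) RNA libraries made with a stranded kit and read from both ends, per the labels' protocols. The submitters' processing notes name featureCounts, the Subread package (1.4.6-p5) and GRCm39. Which aligner and annotation the authors took, and whether strand and reads with several places entered their counting, is not given in the sources used here. Reads shared with a near-identical gene may therefore be lost or divided.

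CPM used effective library sizes with TMM factors of 1.01, 1.02 and 0.965 (edgeR 4.0.16, R 4.3.3; lists in Python 3.11.15, pandas 2.3.3). Exonic lengths, exon overlap and shared 150-letter stretches came from GENCODE M21 (GRCm38), matched by symbol for all 85 genes. Exonic length joined the exons of all annotated transcripts of a gene and can exceed the longest transcript. It was 1474 bases for Hspe1 and 2642 for Hspd1, whose longest transcripts have 964 and 2423 bases. Levels, ranks and ratios per length depend on this choice. Variation between libraries was tested with an intercept-only quasi-likelihood fit over the 18087 genes kept by filterByExpr, by an upper-tail F test of the quasi-dispersion against its trend, Benjamini-Hochberg adjusted. The test was also run on simulated counts in which every gene had the trended dispersion. That run cannot show how the test behaves where dispersions differ between genes, and its outcome is not given here. DESeq2 1.42.0 served as an alternative, as did other scalings, filters, pseudocounts (1 in the main values), list summaries and leaving out each library.

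Every inducible and constitutive gene was to be named, and of the other lists those detected or at 0, in ranges beyond the highest. Members, lists and tests were chosen with earlier results of these data known.

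One gene of a stress list is not reported here.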

Additional observations from a re-analysis of the deposited data

How the results depend on the processing

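The level difference, inducible minus constitutive, rests on the choice of genes and summary: against 0.30 (log2), it was 0.0074 with CPM not divided by length, 0.31 with a pseudocount of 0.1, 0.40 with Hspa1a and Hspa1b summed, 0.44 without both and 0.12 without genes with overlapped exons. It turned to -0.39 with list means and to -0.39 without genes sharing over 10% of their 150-letter stretches. Leaving out 1 library gave 0.29 to 0.30. The cause of these differences was not tested. The shift of the lists moved without Hspa1a and Hspa1b to 0.04 (0.0437) in replicate 1 and -0.02 (-0.0161) in replicate 2, and with list medians to -0.04 (-0.0399) in replicate 2 and -0.093 in replicate 3. With 1 library left out it ran from -0.0043 to 0.02 in replicate 1, from 0.0043 to 0.03 in replicate 2 and from -0.03 to -0.02 in replicate 3. The median SD of the inducible list ran from 0.084 without replicate 1 to 0.16 without replicate 3. That of all genes was 0.063 over all genes with any count.

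The count of 15 variable genes was 173 without a filter, 6 at 1 CPM or more in every library, 0 with a robust prior (785 at an unadjusted p under 0.05), 112 in DESeq2 and 7, 80 and 33 without replicates 1, 2 and 3. Members called were 0 in each of these. Members under an unadjusted p of 0.05, 1 in the report, were 4 without a filter, 0 with DESeq2's size factors, at 1 CPM or more and with a robust prior, and 0 to 4 with 1 library left out. With 3 blocks of the heat shock element, 0% of inducible genes, 10% of constitutive genes and 0.514% of all genes had a match. All other alternatives kept the direction and lay within the spread between libraries, or within 1.5 times for SDs and counts. With 3 libraries even the 3.50-fold range of Fkbp5, picked after its values were seen, was not called (adjusted p = 0.232 in edgeR).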
